A study of Mus musculus with 8 samples.

Results

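The genes described here encode the proteins of the mitochondrial ribosome. They were taken by name, as the rows of the deposited table whose gene symbol begins with Mrpl or Mrps followed by a digit, with pseudogene names left out. The rule found 78 genes among 25766 entries, 49 named Mrpl for the large subunit and 29 named Mrps for the small subunit. All 78 passed the filter on low counts, which left 14907 genes for testing, and no name was dropped as a pseudogene. They lie on 17 chromosomes and are all annotated as protein coding in GENCODE M21 (GRCm38). RNA-seq had been made from whole subcutaneous tumors grown from MC38-OVA, colon adenocarcinoma cells of the mouse that carry ovalbumin as a model antigen, in female C57BL/6J mice. In 4 tumors the cells carried shNT, the comparison group, and in 4 they carried shXBP1, a hairpin against Xbp1, whose product is a transcription factor activated by unfolded proteins in the endoplasmic reticulum. All 8 tumors thus shared the line, the antigen, the injection site and the host strain. Neither the labels nor the files give the number of hairpin sequences, whether the cells were a clone, the age of the mice or the time of harvest. Numbered tumors are not said to come from separate mice, so a p-value here measures spread among these samples only, which may be technical.

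Mitochondria keep a small genome of their own, and a dedicated ribosome translates its messages into core subunits of the respiratory chain and of ATP synthase. The proteins of this ribosome are encoded in the nucleus, made in the cytosol and imported. Some have counterparts in bacterial ribosomes and others were added in the mitochondrial lineage. The transcription factors NRF1 and GABP are known regulators of many nuclear genes for mitochondrial proteins.

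Total counts ranged from 29070605 to 36012997 per tumor, and the count of a member in a tumor ranged from 445 to 4790. Xbp1 itself was at 97.3, 96.0, 103 and 109 CPM in shNT and at 77.2, 76.0, 73.7 and 56.6 CPM in shXBP1, counts scaled to a common library size. Values of single tumors are given in the order of their numbers, 1 to 4, within each group. The groups did not overlap, and Xbp1 fell by 0.51 log2 units (SE 0.10, edgeR adjusted p = 0.00255). Defining epithelial markers of a colon line were scarce. Epcam, Krt8, Krt18, Krt19, Krt20, Cdh1 and Cldn7 together gave 5.61 to 7.88 CPM in shNT and 7.55 to 11.1 CPM in shXBP1 tumors, and Krt18 was at 0 in all 4 shNT tumors.

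In shXBP1 tumors 15 of the 78 genes fell, 1 rose and 62 did not pass the test (edgeR quasi-likelihood test, Benjamini-Hochberg adjustment over all 14907 genes, threshold 0.05). The genes that fell were 19.2% of the family, against 13.1% of all genes tested, and the 1 that rose was 1.28%, against 16.9% of all genes. In either direction 20.5% of the family were called, against 30.0% of all genes. The changes were small: the members that fell were 1.17-fold to 1.58-fold lower, with a median of 1.26-fold, and no member changed 2-fold. All genes called lower had a median of 1.33-fold. The median log2 fold change of the family was -0.08, with 52 members below 0 and 26 above, and that of all genes was -0.01.

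In CPM, groups of tumors did not overlap in 19 members that were lower in shXBP1, which is 24.4% of the family, against 13.6% of all genes. They did not overlap in 1 member that was higher, or 1.28%, against 16.6% of all genes. All 16 called members were among these. The other 4 were Mrps5, Mrpl16, Mrps30 and Mrpl58, named because their groups did not overlap, which was seen in their values. Without an adjustment for the number of genes, 19 members (24.4%) were lower and 3 (3.85%) higher at a p under 0.05, against 19.3% and 21.5% of all genes.

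**Figure D1:**
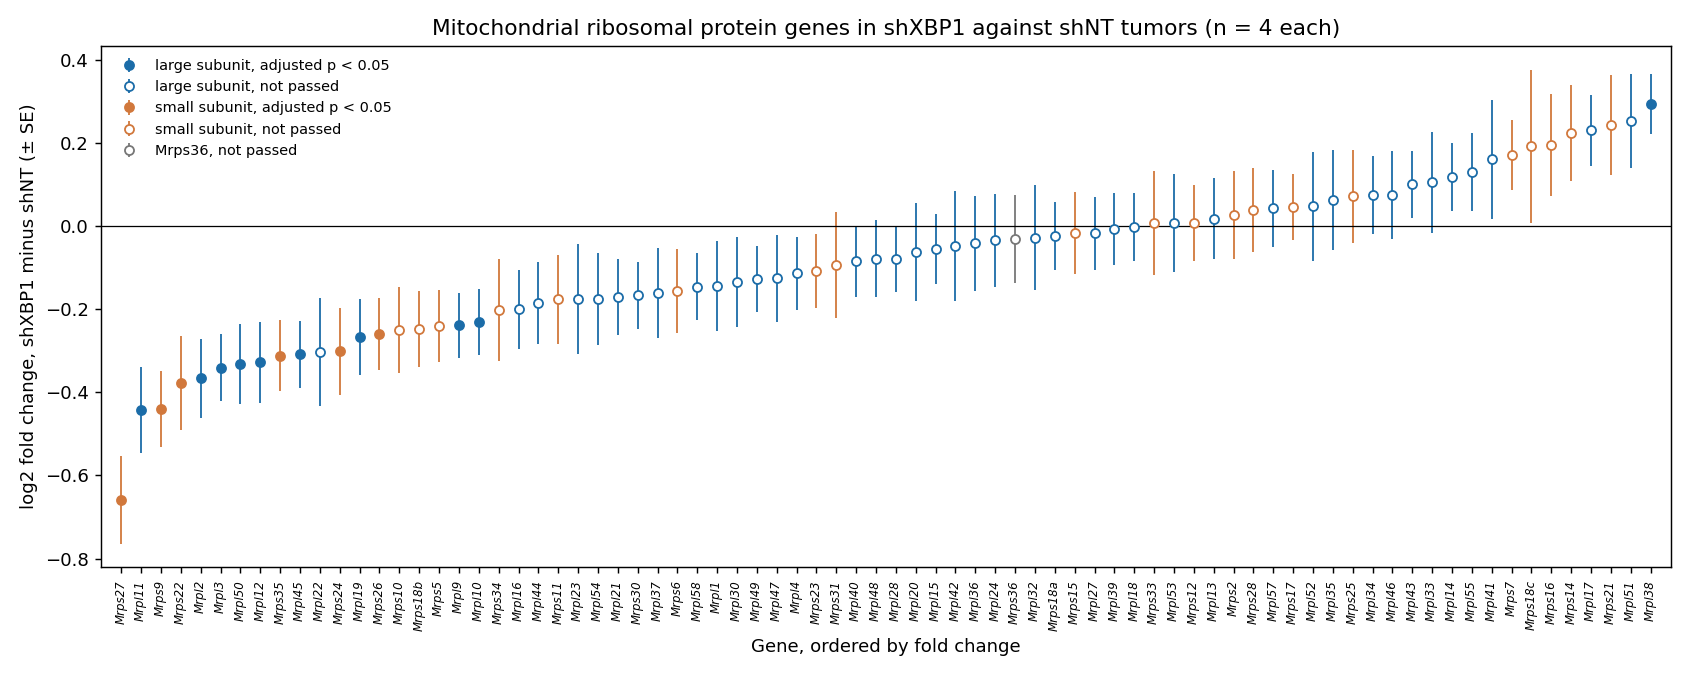
Log2 fold change (shXBP1 minus shNT, edgeR) of each of the 78 genes with bars of 1 SE, ordered along the x axis from lowest to highest and coloured by subunit. Filled points passed the adjusted threshold of 0.05: 15 lie below 0 and 1, Mrpl38, lies above.

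Among small-subunit genes 6 of 26 (23.1%) fell and none rose, where 13.1% of all genes tested fell and 16.9% rose. Of the 6, 3 are described first. Mrps27 (ENSMUSG00000041632, GRCm38 chromosome 13, 99344786 to 99415562, plus strand) encodes a pentatricopeptide repeat protein of the small subunit with no bacterial counterpart, which contacts ribosomal RNA. It was at 45.0, 48.1, 50.4 and 41.5 CPM in shNT and at 27.1, 25.7, 29.7 and 34.6 CPM in shXBP1. Every shXBP1 tumor lay below every shNT tumor, and Mrps27 fell by 0.66 log2 units (SE 0.11, adjusted p = 0.000714), a 1.58-fold lower level and the widest shift of the family. Mrps9 (ENSMUSG00000060679, GRCm38 chromosome 1, 42851233 to 42905683, plus strand), whose protein sits in the head of the subunit and has a bacterial counterpart, was at 76.8, 70.5, 65.1 and 59.3 CPM in shNT and at 47.7, 48.3, 50.9 and 53.2 CPM in shXBP1. Again no tumors overlapped, and Mrps9 fell by 0.44 log2 units (SE 0.09, adjusted p = 0.00336). Mrps35 (ENSMUSG00000040112, GRCm38 chromosome 6, 147042764 to 147073991, plus strand), a protein with no bacterial counterpart, was at 34.2, 29.7, 32.5 and 31.5 CPM in shNT and at 25.5, 26.2, 24.1 and 27.2 CPM in shXBP1. Mrps35 fell by 0.31 log2 units (SE 0.09, adjusted p = 0.0156).

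The remaining small-subunit genes that fell were Mrps22, Mrps26 and Mrps24. Mrps22 (ENSMUSG00000032459, GRCm38 chromosome 9, 98588730 to 98601660, minus strand), mutated in inherited disease of mitochondrial translation, was at 32.8, 26.6, 30.2 and 25.3 CPM in shNT and at 19.2, 23.7, 24.6 and 20.9 CPM in shXBP1. It fell by 0.38 log2 units (SE 0.11, adjusted p = 0.0251). Mrps26 (ENSMUSG00000037740, GRCm38 chromosome 2, 130563742 to 130568695, plus strand), another mitochondria-specific protein, was at 53.7, 49.9, 49.8 and 57.2 CPM in shNT and at 48.7, 39.8, 44.7 and 42.7 CPM in shXBP1. Its groups were apart by a narrow margin, and it fell by 0.26 log2 units (SE 0.09, adjusted p = 0.0398). Mrps24 (ENSMUSG00000020477, GRCm38 chromosome 11, 5703983 to 5715680, minus strand) encodes the counterpart of a bacterial protein that lines the messenger entry site. It was at 40.8, 32.8, 34.2 and 34.3 CPM in shNT and at 28.5, 32.5, 29.5 and 24.9 CPM in shXBP1, and it fell by 0.30 log2 units (SE 0.10, adjusted p = 0.0443). Part of its exon sequence, 15.4%, is shared on the same strand with Urgcp, whose log2 fold change was -0.54 (adjusted p = 0.00570), so reads of Mrps24 are uncertain.

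The 3 genes named here for the stalk fell in the fit of all 8 tumors. The stalk is the flexible arm of the large subunit that recruits translation factors, and the proteins of Mrpl10, Mrpl11 and Mrpl12 are part of it. These 3 do not stand for the whole stalk region, and other members were not sorted by their place in it. Mrpl11 (ENSMUSG00000024902, GRCm38 chromosome 19, 4962147 to 4966999, plus strand), which forms the stalk base, was at 31.0, 29.7, 32.2 and 32.8 CPM in shNT and at 23.8, 25.4, 24.4 and 19.0 CPM in shXBP1. No tumors overlapped, and Mrpl11 fell by 0.44 log2 units (SE 0.10, adjusted p = 0.00654). Mrpl12 (ENSMUSG00000039640, GRCm38 chromosome 11, 120484613 to 120489065, plus strand), the stalk protein that also has been reported to bind the mitochondrial RNA polymerase, was at 125, 92.9, 103 and 98.3 CPM in shNT and at 84.4, 89.0, 84.8 and 75.6 CPM in shXBP1. The lowest shNT tumor and the highest shXBP1 tumor were close, and Mrpl12 fell by 0.33 log2 units (SE 0.10, adjusted p = 0.0236). Mrpl10 (ENSMUSG00000001445, GRCm38 chromosome 11, 97041560 to 97049213, plus strand), which joins the stalk to its base, was at 63.2, 59.3, 56.7 and 59.1 CPM in shNT and at 51.4, 45.7, 52.6 and 53.3 CPM in shXBP1. It fell by 0.23 log2 units (SE 0.08, adjusted p = 0.0438). With each of the 8 tumors left out in turn, Mrpl11 stayed called in 8 fits, Mrpl12 in 4 and Mrpl10 in 1.

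Upstream sequences are shown for the member with the widest shift and for the 3 genes named for the stalk, and they differ in the letters they hold. They are the RefSeq bases (GRCm38.p6) upstream of each gene as far as the nearest exon of GENCODE, at most 250 bases before the RefSeq start, 5′ to 3′. The stretch ends 1 base before that start in Mrps27, 25 in Mrpl12, 23 in Mrpl10 and 160 in Mrpl11. The stretches thus differ in position and length, and for Mrpl11 the bases nearest the RefSeq start are not shown. Capitals mark the matched letters. In Mrps27 these are the ETS letters bound by GABPA (CCGGAAG, on the other strand), and in Mrpl12 and Mrpl10 the NRF1 letters (GCGCNTGCG, on either strand). The stretch shown for Mrpl11 held none of the letters searched.
Mrps27 (chr13:99344706-99344785, plus strand): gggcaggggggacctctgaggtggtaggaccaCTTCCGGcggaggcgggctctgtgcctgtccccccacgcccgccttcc
Mrpl12 (chr11:120484387-120484612, plus strand): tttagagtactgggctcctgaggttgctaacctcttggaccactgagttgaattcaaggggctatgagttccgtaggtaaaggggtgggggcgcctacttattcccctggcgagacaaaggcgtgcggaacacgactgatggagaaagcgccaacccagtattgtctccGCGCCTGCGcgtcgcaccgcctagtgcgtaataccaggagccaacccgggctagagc
Mrpl10 (chr11:97041408-97041559, plus strand): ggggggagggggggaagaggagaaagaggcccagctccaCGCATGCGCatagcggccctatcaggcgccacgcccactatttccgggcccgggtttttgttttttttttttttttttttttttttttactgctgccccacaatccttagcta
Mrpl11 (chr19:4962056-4962146, plus strand): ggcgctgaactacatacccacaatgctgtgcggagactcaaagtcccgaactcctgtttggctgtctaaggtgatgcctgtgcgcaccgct

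RefSeq promoters, 250 bases before to 50 after the start, were found for 69 of the 78 genes by symbol, and both strands were searched. The NRF1 letters GCGCNTGCG stood in 18 of the 69 (26.1%), against 6.61% of the 27025 promoters of all genes and 13.5% of those of the 10484 tested genes with a promoter. The ETS letters CCGGAAG stood in 24 (34.8%), against 9.16% and 17.9%. The YY1 letters AAGATGGCG stood in 8 (11.6%), against 1.49% and 3.07%. The E-box CACGTG, bound by MYC among others, stood in 5 (7.25%), against 7.19% and 9.85%. Of the 13 matched members that fell, 6 held the NRF1 letters, 4 the ETS letters, 2 the YY1 letters and 1 the E-box. Neither TGACGTGG, letters of the unfolded protein response element bound by XBP1, nor TGATGNAA, letters of ATF4-CHOP sites, stood in any of the 69, against 0.792% and 2.29% of tested genes. These are matches of letters in a short window and not sites.

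Of the large subunit as a whole, 9 of 51 genes (17.6%) fell and 1 (1.96%) rose, against 13.1% and 16.9% of all genes tested. Mrpl3 (ENSMUSG00000032563, GRCm38 chromosome 9, 105053239 to 105079888, plus strand) and Mrpl2 (ENSMUSG00000002767, GRCm38 chromosome 17, 46646229 to 46650139, plus strand) encode counterparts of the bacterial proteins nearest the peptidyl transferase centre. Mrpl3 was at 78.8, 83.0, 71.5 and 68.8 CPM in shNT and at 59.8, 60.5, 56.9 and 61.4 CPM in shXBP1, with no overlap. It fell by 0.34 log2 units (SE 0.08, adjusted p = 0.00766). Mrpl2 was at 57.3, 57.2, 58.3 and 51.9 CPM in shNT and at 46.3, 36.0, 45.1 and 46.9 CPM in shXBP1. Shifts of Mrpl2 were uneven, with shXBP1 tumor 2 well below the other 3 of its group and shNT tumor 4 below the other 3 of its own, and it fell by 0.37 log2 units (SE 0.10, adjusted p = 0.0120).

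Mrpl45 (ENSMUSG00000018882, GRCm38 chromosome 11, 97315716 to 97329920, plus strand) encodes the protein that anchors the ribosome to the inner membrane, where the new chains are inserted. It was at 53.4, 49.6, 51.0 and 56.1 CPM in shNT and at 46.4, 41.9, 41.9 and 39.4 CPM in shXBP1, without overlap, and fell by 0.31 log2 units (SE 0.08, adjusted p = 0.0125). Mrpl50 (ENSMUSG00000044018, GRCm38 chromosome 4, 49512596 to 49521093, minus strand), a mitochondria-specific protein, was at 72.2, 62.7, 58.7 and 57.8 CPM in shNT and at 47.4, 51.1, 55.6 and 45.6 CPM in shXBP1. It fell by 0.33 log2 units (SE 0.10, adjusted p = 0.0200). Mrpl19 (ENSMUSG00000030045, GRCm38 chromosome 6, 81957851 to 81965958, minus strand), the counterpart of a bacterial protein at the interface of the subunits, was at 44.0, 42.6, 39.8 and 42.9 CPM in shNT and at 37.7, 34.8, 38.1 and 30.1 CPM in shXBP1. It fell by 0.27 log2 units (SE 0.09, adjusted p = 0.0425). Mrpl9, also with a bacterial counterpart and outside the rule for named genes, fell by 0.24 (SE 0.08, adjusted p = 0.0367), and it is given to complete the list after its value was seen.

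Mrpl38 (ENSMUSG00000020775, GRCm38 chromosome 11, 116131817 to 116138868, minus strand), a mitochondria-specific protein of the central protuberance of the large subunit, was the member that rose. It was at 80.4, 78.5, 75.8 and 84.2 CPM in shNT and at 102, 95.3, 99.8 and 94.0 CPM in shXBP1. All 4 shXBP1 tumors lay above all 4 shNT tumors. Mrpl38 rose by 0.29 log2 units (SE 0.07, adjusted p = 0.00823), or 1.23-fold.

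**Figure D2:**
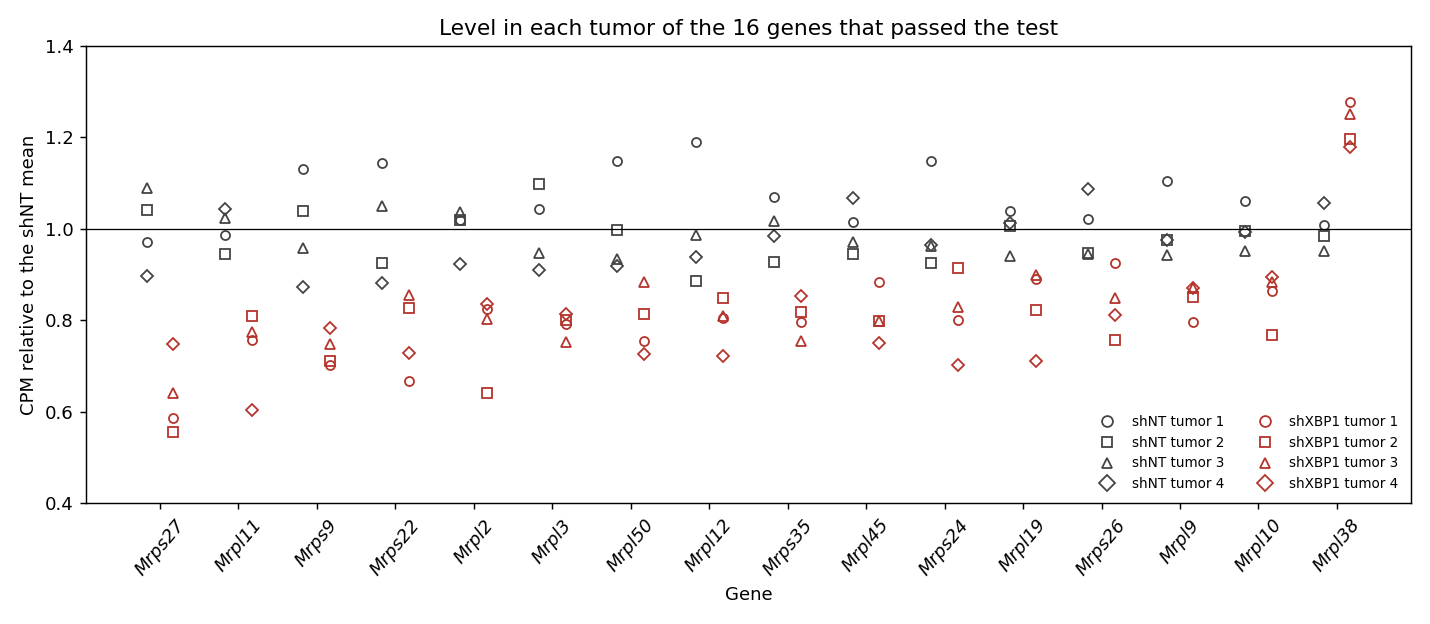
Level of the 16 genes that passed the test in each of the 8 tumors, as CPM divided by the mean of the 4 shNT tumors (y axis), with shNT tumors in grey, shXBP1 tumors in red and a symbol for each tumor number. For all 16 genes the 4 shXBP1 tumors lie apart from the 4 shNT tumors, above them for Mrpl38 and below them for the other 15.

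Mrps27, Mrps9, Mrpl11, Mrpl3, Mrpl2 and Mrpl45 fell, and Mrpl38 rose, in all 8 fits that left out 1 tumor. The other 9 calls were lost in some of them. Mrps35 had an adjusted p of 0.0520, 0.0543 and 0.0539 on leaving out shNT tumors 1 and 3 and shXBP1 tumor 3, respectively. Mrpl50 had an adjusted p of 0.0645 and 0.0579 on leaving out shNT tumor 1 and shXBP1 tumor 1, respectively. Mrpl12 had an adjusted p of 0.0695, 0.0591, 0.0504 and 0.0529 on leaving out shNT tumors 1 and 3 and shXBP1 tumors 1 and 3, respectively. Mrps22 had an adjusted p of 0.0816, 0.0797 and 0.0758 on leaving out shNT tumors 1 and 3 and shXBP1 tumor 1, respectively. With all 8 tumors these 4 genes had an adjusted p of 0.0156 to 0.0251. The genes described next, at 0.0367 to 0.0443, lay nearer the threshold. Mrps24 had an adjusted p of 0.137, 0.0509, 0.0798, 0.0646, 0.0924, 0.0812 and 0.0898 on leaving out shNT tumors 1, 2, 3 and 4 and shXBP1 tumors 1, 3 and 4, respectively. Mrpl10 had an adjusted p of 0.120, 0.0813, 0.0740, 0.0771, 0.0757, 0.129 and 0.0711 on leaving out shNT tumors 1, 2, 3 and 4 and shXBP1 tumors 1, 2 and 3, respectively. Mrpl19 had an adjusted p of 0.0983, 0.0866, 0.0614, 0.0848, 0.0821 and 0.0886 on leaving out shNT tumors 1, 2, 3 and 4 and shXBP1 tumors 2 and 4, respectively. Mrps24 and Mrpl10 were called in 1 of the 8 fits each, and Mrpl19 in 2. Mrps26 had an adjusted p of 0.0875, 0.0527, 0.0643, 0.110, 0.112, 0.0769 and 0.0643 on leaving out shNT tumors 1, 2, 3 and 4 and shXBP1 tumors 2, 3 and 4, respectively. Mrpl9 had an adjusted p of 0.119, 0.0596, 0.0600, 0.0584, 0.0932, 0.0717 and 0.0678 on leaving out shNT tumors 1, 2, 3 and 4 and shXBP1 tumors 1, 2 and 3, respectively. On leaving out shNT tumor 1, shNT tumor 3 or shXBP1 tumor 1, the members that fell numbered 6, 8 and 9. Over the 17 alternatives in all, the adjusted p ranged over 3.67e-07 to 0.551 for Mrps27, 0.000675 to 0.0340 for Mrpl11 and 0.000390 to 0.506 for Mrpl38.

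Reads of some of these genes may come from a neighbour, the strand setting of the counting being not stated in any label or file header. On the opposite strand other genes cover 24.2% of the exon bases of Mrps27 (6430562O15Rik), 13.1% of those of Mrpl12 (Gm16755), 14.1% of those of Mrpl10 (Gm11574) and 36.0% of those of Mrpl19 (Gcfc2). Gcfc2 was low beside Mrpl19, at 11.8 ± 2.45 CPM in shNT against 9.68 ± 0.780 CPM in shXBP1 (mean ± SD, n = 4, edgeR adjusted p = 0.199).

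Genes with other fixed roles did not pass. Mrpl58, the peptidyl-tRNA hydrolase that is built into the large subunit, was at 42.1, 41.2, 44.4 and 41.7 CPM in shNT and at 39.5, 38.7, 40.7 and 34.3 CPM in shXBP1. Its groups did not overlap, and it missed the threshold (log2 fold change -0.15, SE 0.08, adjusted p = 0.199). Mrps12, of the decoding centre, was at 20.1, 22.0, 21.8 and 24.5 CPM in shNT and at 22.1, 22.7, 21.8 and 22.3 CPM in shXBP1, with groups that overlapped throughout (log2 fold change 0.01, SE 0.09, adjusted p = 0.955). Mrpl41, which has also been linked to cell death, was at 20.7, 16.6, 19.8 and 17.8 CPM in shNT and at 18.1, 25.8, 23.1 and 16.6 CPM in shXBP1 (log2 fold change 0.16, SE 0.14, adjusted p = 0.429).

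The 3 paralogs Mrps18a, Mrps18b and Mrps18c descend from 1 bacterial protein, and the first of them is part of the large subunit despite its name. In the counts by class, Mrps18b was nonetheless placed among the mitochondria-specific small-subunit genes. Mrps18c was placed among those with a bacterial counterpart. Mrps18a was at 32.8, 34.3, 35.3 and 37.0 CPM in shNT and at 37.0, 34.1, 32.3 and 33.9 CPM in shXBP1 (log2 fold change -0.02, SE 0.08, adjusted p = 0.860). Mrps18b was at 52.4, 59.2, 46.1 and 50.7 CPM in shNT and at 46.5, 40.4, 45.5 and 43.3 CPM in shXBP1 (log2 fold change -0.25, SE 0.09, adjusted p = 0.0579). Mrps18c was at 40.3, 24.8, 30.7 and 32.1 CPM in shNT and at 32.0, 47.8, 39.4 and 27.2 CPM in shXBP1 (log2 fold change 0.19, SE 0.18, adjusted p = 0.468). None of the 3 passed, and their log2 fold changes differed in sign. Of the related pair Mrps30 and Mrpl37, both large-subunit proteins, Mrps30 was at 52.8, 45.2, 48.7 and 44.6 CPM in shNT and at 43.1, 43.8, 41.2 and 42.4 CPM in shXBP1 (log2 fold change -0.17, SE 0.08, adjusted p = 0.139). Mrpl37 was at 38.7, 43.9, 42.0 and 39.4 CPM in shNT and at 33.7, 32.1, 35.6 and 45.1 CPM in shXBP1 (log2 fold change -0.16, SE 0.11, adjusted p = 0.289). Mrps36, reported as a subunit of the oxoglutarate dehydrogenase complex and not of the ribosome, was at 18.9, 19.8, 16.5 and 18.7 CPM in shNT and at 15.7, 18.7, 19.9 and 18.0 CPM in shXBP1 (log2 fold change -0.03, SE 0.11, adjusted p = 0.856). Its groups overlapped throughout.

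The 2 members nearest to no difference were Mrpl18 and Mrpl39. Mrpl18, the counterpart of a bacterial protein of the central protuberance, was at 72.7, 72.0, 67.5 and 74.5 CPM in shNT and at 69.3, 76.0, 77.0 and 64.0 CPM in shXBP1 (log2 fold change -0.00218, SE 0.08). Mrpl39, a mitochondria-specific protein, was at 43.6, 42.0, 44.0 and 39.6 CPM in shNT and at 37.8, 44.7, 45.6 and 40.3 CPM in shXBP1 (log2 fold change -0.00683, SE 0.09). In both genes the spread within a group was wider than the gap between the group means.

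By class, 4 of 10 mitochondria-specific small-subunit genes (40.0%) fell, with a median log2 fold change of -0.22. All genes tested had 13.1% lower. Of 16 small-subunit genes with a bacterial counterpart 2 (12.5%) fell, with a median of 0.02. In the large subunit 7 of 30 genes with a bacterial counterpart fell (23.3%, median -0.10), and of 21 mitochondria-specific genes 2 fell (9.52%) and 1 rose (median -0.05). The summed level of the mitochondria-specific small-subunit genes was at 434, 401, 402 and 402 CPM in shNT and at 370.5, 358, 348 and 349.9 CPM in shXBP1, without overlap. For the other classes the groups overlapped. The whole family took 0.355% of all counts, with a sum of 3480.3 to 3884 CPM in shNT and 3169 to 3596 CPM in shXBP1 tumors, and these sums overlapped as well. No difference between classes was tested. On leaving out 1 tumor the counts that fell came to 1 to 3 of the mitochondria-specific small-subunit genes (1 without shNT tumor 1, and 2 on leaving out shNT tumor 3 or shXBP1 tumor 3), 1 to 2 of the small-subunit genes with a counterpart, 3 to 6 of the large-subunit genes with a counterpart (3 on leaving out shNT tumor 1 or 3, and 4 on leaving out shNT tumor 2 or 4 or shXBP1 tumor 1 or 2) and 1 to 3 of the mitochondria-specific large-subunit genes. Small-subunit genes with a counterpart had 1 that fell on leaving out shNT tumor 1, 2 or 3 or shXBP1 tumor 1 or 3, as had the mitochondria-specific large-subunit genes for shNT tumor 1 or shXBP1 tumor 1.

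**Figure D3:**
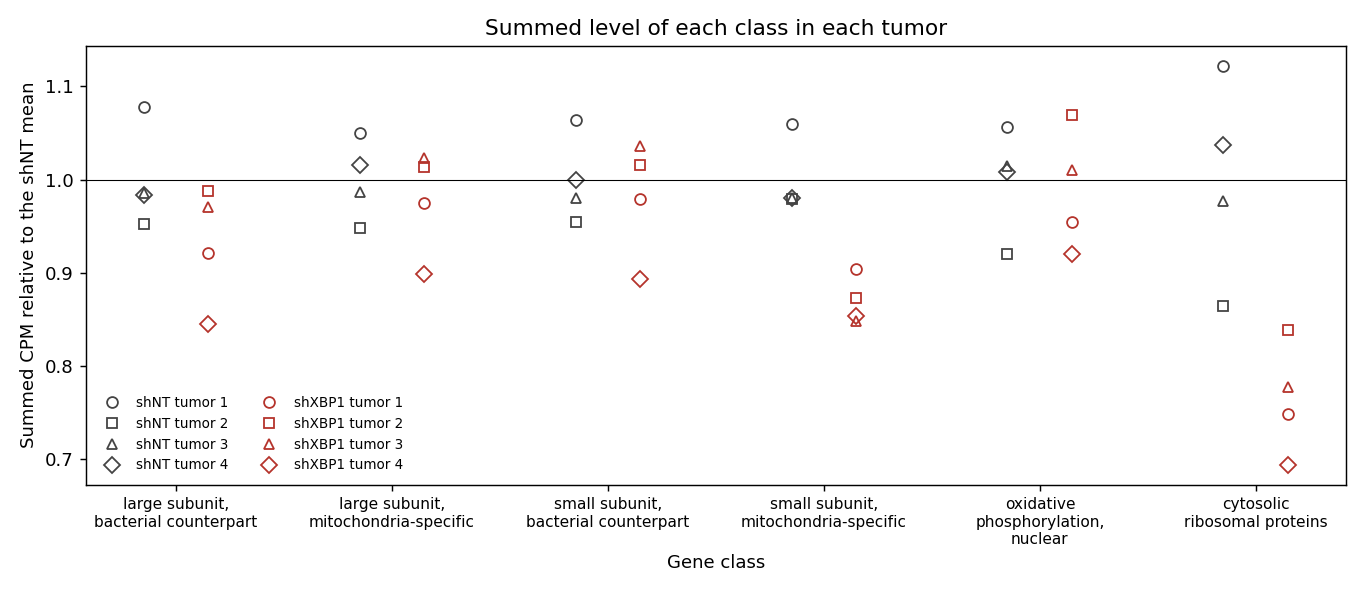
Summed level of each class in each tumor, as summed CPM divided by the mean of the 4 shNT tumors (y axis), with 1 symbol per tumor, beside the same for oxidative phosphorylation and cytosolic ribosomal protein genes. The mitochondria-specific small-subunit genes and the cytosolic ribosomal protein genes are the sums drawn in which every shXBP1 tumor lies below every shNT tumor.

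Tumors differed within groups in a way that ran across the family. Among the 4 shXBP1 tumors, tumor 4 was the lowest for 44 of the 78 members, whereas it was the lowest for 33.3% of all genes. Among the shNT tumors, tumor 1 was the highest for 38 members (28.6% of all genes) and tumor 2 the lowest for 38 (27.7% of all genes). The median member deviated from its group mean by -0.10 on the log2 scale in shXBP1 tumor 4 and by 0.07 in shNT tumor 1. Without shXBP1 tumor 4, 14 members fell (17.9%, against 15.9% of all genes), 12 of them among the 15 above. In that fit 5 rose (6.41%, against 19.2% of all genes): Mrpl38, Mrpl51, Mrps14, Mrps16 and Mrps21, the last 4 named after their values were seen. 

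Some lists of cell type markers differed between the groups and others did not. Of all genes tested 16.9% were higher and 13.1% lower. Which cells expressed each marker was not tested. Of 18 leukocyte markers tested (20 listed) 17 rose, with a summed level of 1903 to 2675 CPM in shNT and 3122 to 6257 CPM in shXBP1 tumors. Of 9 fibroblast markers 6 rose, with sums of 1909 to 3210.1 CPM in shNT and 6132 to 8254 CPM in shXBP1 tumors. Of 6 endothelial markers 3 rose, with sums of 43.4 to 52.3 CPM in shNT and 88.2 to 101 CPM in shXBP1 tumors. Of 18 proliferation genes 8 fell, with sums of 4467 to 4863 CPM in shNT and 3383 to 4107 CPM in shXBP1 tumors. Of 7 skeletal muscle markers 1, Mb, rose and of 3 adipocyte markers tested 1, Fabp4, rose, both named after their values were seen, with sums of 12.2 to 39.1 CPM in shNT and 20.1 to 77.6 CPM in shXBP1 tumors and 11.2 to 17.1 CPM in shNT and 23.1 to 31.0 CPM in shXBP1 tumors. None of 5 erythroid markers tested passed (18.0 to 105 CPM in shNT and 13.9 to 57.0 CPM in shXBP1 tumors; at an unadjusted p under 0.05, 0), and no marker was at 0 in all 8 tumors. In whole-tumor RNA, fewer cells of a type and less RNA per cell cannot be told apart.

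Ptprc, the pan-leukocyte antigen CD45, was at 59.4, 42.6, 66.5 and 56.4 CPM in shNT and at 156, 193, 171 and 94.8 CPM in shXBP1 (log2 fold change 1.45, SE 0.22, adjusted p = 0.00128). With Ptprc level (log2 CPM) added as a covariate, 2 members were called lower (2.56%, against 0.711% of all genes), Mrpl11 and Mrpl42, and none was called higher. At an unadjusted p under 0.05 that edgeR fit had 26 members lower (33.3%, against 7.92% of all genes) and 0 higher (against 8.12%). Mrpl11 then had a log2 fold change of -0.95 (SE 0.21, adjusted p = 0.0340) and Mrpl42, named after its value was seen, -0.86 (SE 0.20, adjusted p = 0.0480). No other member was called in this fit. Among those called without the covariate in each fit that left out a tumor, the log2 fold change was now -0.29 (SE 0.21) for Mrps27, -0.27 (SE 0.21) for Mrps9, -0.16 (SE 0.19) for Mrpl3, -0.12 (SE 0.21) for Mrpl2, -0.47 (SE 0.19) for Mrpl45 and 0.25 (SE 0.17) for Mrpl38. It was nearer 0 than without the covariate for each of these but Mrpl45. The median of the family was -0.31, with 64 of 78 members below 0, and the median of all genes was 0.0089. Standard errors in this fit were 2.23 times as wide, and Ptprc itself did not overlap between the groups. The part of host cells in the members' differences was not tested further.

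Of 5 mitoribosomal protein genes that carry other names 3 (60%) fell, against 13.1% of all genes tested. They were Gadd45gip1, Ptcd3 and Dap3, and the list median was -0.32. Dap3, a GTP-binding protein of the small subunit, was at 85.1 ± 5.23 CPM in shNT against 68.1 ± 2.55 CPM in shXBP1 (mean ± SD, n = 4; log2 fold change -0.32, SE 0.07, adjusted p = 0.00661). Ptcd3, a pentatricopeptide repeat protein of the small subunit, was at 65.6 ± 4.78 CPM in shNT against 48.3 ± 6.04 CPM in shXBP1 (mean ± SD, n = 4; log2 fold change -0.44, SE 0.10, adjusted p = 0.00583). Gadd45gip1, of the large subunit, was at 77.8 ± 4.45 CPM in shNT against 60.2 ± 4.55 CPM in shXBP1 (mean ± SD, n = 4; log2 fold change -0.37, SE 0.08, adjusted p = 0.00484). All 3 were called in each of the 8 fits that left out a tumor. With Ptprc as a covariate none of these 3 was called, Chchd1 of the same list fell (log2 fold change -1.09, adjusted p = 0.0340), and the list median was -0.49.

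Among all genes tested 13.1% were lower and 16.9% higher. Of 27 genes for assembly of the mitochondrial ribosome and modification of its RNA, 4 (14.8%) fell and none rose (median -0.12). They were Rcc1l, Ngrn and Mrm3, with log2 fold changes of -0.37, -0.40 and -0.46, and C1qbp, named after its value was seen (-0.21). Of 16 mitochondrial translation factors 3 (18.75%) fell and none rose (median -0.08). Guf1, which binds mitochondrial ribosomes, was at 44.4 ± 4.39 CPM in shNT against 31.3 ± 2.49 CPM in shXBP1 (mean ± SD, n = 4; log2 fold change -0.50, SE 0.10, adjusted p = 0.00201). Tsfm, the elongation factor that recycles Tufm, had a log2 fold change of -0.26, and Taco1, the translational activator of cytochrome oxidase subunit I, one of -0.48. Of 17 mitochondrial aminoacyl-tRNA synthetases 2 (11.8%) fell, Tars2 (-0.21) and Nars2 (-0.36), with a list median of -0.12. Their sum in shNT tumor 3 was 1014 CPM, and Lars2 alone was at 582 CPM there, against 92.4 to 123 CPM in the other 7 tumors. Rcc1l, Ngrn and Guf1 were called whichever tumor was left out, and Mrm3 in all fits but that without shNT tumor 2 (adjusted p = 0.0536). C1qbp, Tsfm, Taco1, Tars2 and Nars2 were each called in 1 of the 8 fits, with adjusted p up to 0.109, 0.106, 0.141, 0.0891 and 0.116. The fit that kept the call was the one without shXBP1 tumor 4 for C1qbp, Tsfm and Tars2, and without shXBP1 tumor 2 for Taco1 and Nars2. With shNT tumor 2 left out 2 assembly genes fell; the translation factors that fell were 1 to 4 (1 on leaving out any shNT tumor or shXBP1 tumor 1 or 3), and the synthetases 0 to 4, with 0 on leaving out any shNT tumor or shXBP1 tumor 3 and 4 without shXBP1 tumor 4. With Ptprc as a covariate 0 assembly genes (median -0.02), 1 translation factor (median -0.15) and 0 synthetases (median -0.03) fell. The factor was Slirp (log2 fold change -1.23, adjusted p = 0.0326).

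Of 16 tested genes for maintenance and transcription of mitochondrial DNA and its regulators, 5 (31.25%) fell and none rose, with a median of -0.21. Of all genes tested 13.1% fell and 16.9% rose. Tfam, which packages mitochondrial DNA and starts its transcription, was at 65.0 ± 5.13 CPM in shNT against 49.0 ± 1.15 CPM in shXBP1 (mean ± SD, n = 4; log2 fold change -0.41, SE 0.08, adjusted p = 0.00226). Twnk, the mitochondrial DNA helicase, was at 40.2 ± 0.618 CPM in shNT against 28.5 ± 3.74 CPM in shXBP1 (mean ± SD, n = 4; log2 fold change -0.49, SE 0.10, adjusted p = 0.00251). Tfb2m, a transcription initiation factor, was at 28.1 ± 0.560 CPM in shNT against 22.0 ± 2.02 CPM in shXBP1 (mean ± SD, n = 4; log2 fold change -0.35, SE 0.09, adjusted p = 0.0121). The other two were Gabpa (-0.32), a subunit of the factor that binds the ETS letters, and Myc (-0.49), both named after their values were seen. Nrf1, the factor of the NRF1 letters, had a log2 fold change of -0.17 (SE 0.10, adjusted p = 0.222). Ppargc1a, a coactivator of these factors, was below the filter. Tfam, Twnk, Tfb2m and Myc were called whichever tumor was left out. With Ptprc as a covariate none of the list was called and its median was 0.07. In that fit the log2 fold change was -0.49 for Tfam, -0.09 for Twnk, -0.30 for Tfb2m, -0.04 for Gabpa and 0.15 for Myc. Gabpa was called in 4 of the 8 fits and not on leaving out shNT tumor 1, 2 or 3 or shXBP1 tumor 1 (adjusted p up to 0.0591).

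The 13 messages that the mitochondrial ribosome translates did not pass in either direction (edgeR; 0 at an unadjusted p under 0.05). They had a median log2 fold change of -0.01 and sums of 22078 to 27209 CPM in shNT and 19353 to 31868 CPM in shXBP1 tumors. With Ptprc as a covariate 3 of the 13 fell, mt-Nd3 (-2.21), mt-Co2 (-1.01) and mt-Co3 (-1.26), and the median was -0.90. Of 89 tested nuclear genes of oxidative phosphorylation, assembly factors with Nduf names included, the median was 0.05. Of them 5 (5.62%) fell and 1 (1.12%) rose, against 13.1% and 16.9% of all genes. Ndufaf3, an assembly factor of complex I, was the one that rose, at 6.60 ± 1.51 CPM in shNT against 11.5 ± 2.13 CPM in shXBP1 (mean ± SD, n = 4; log2 fold change 0.80, SE 0.20, adjusted p = 0.00838). Cox7a2l, which joins respiratory complexes, and Ndufv1, a complex I subunit, fell by 0.37 and 0.26. On leaving out shXBP1 tumor 4, 20 of these genes rose, and the number that fell was 1 on leaving out shNT tumor 3, 2 for shNT tumor 1, 2 or 4 or shXBP1 tumor 1, and 3 for shXBP1 tumor 2. Ndufv1 lost its call without shNT tumor 3 (adjusted p = 0.0580). With Ptprc as a covariate 5 fell and none rose (Cox7a2l, Cox7c, Ndufa2, Ndufb5 and Ndufc2), with a median of -0.42. Without shXBP1 tumor 4, 1 of the 13 mitochondrial messages rose. Of the cytosolic ribosomal protein genes 42 of 77 (54.5%) fell and none rose, with a median of -0.37. Their sums were 67706 to 87884 CPM in shNT and 54395 to 65686 CPM in shXBP1 tumors. Without 1 tumor 34 to 53 fell, and with Ptprc as a covariate 28 fell, with a median of -0.80. Rpl5, Rps10 and Rpl13 fell by 0.76, 0.60 and 0.58. Many of these genes have near-identical processed copies, and no label or file header says how such reads were counted.

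**Figure D4:**
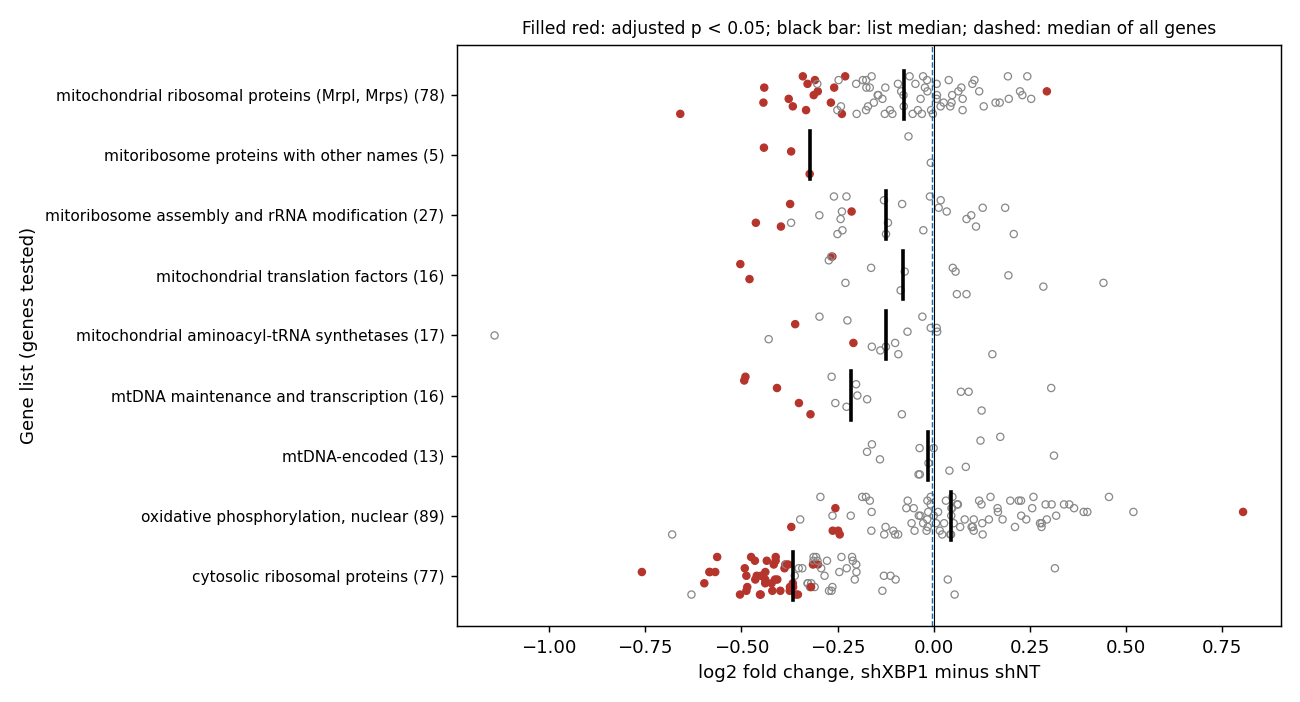
Log2 fold change (shXBP1 minus shNT, edgeR) of each tested gene in the mitochondrial ribosomal protein family and in the other pathway lists, with the median of each list marked. The family has a median of -0.08, the nuclear oxidative phosphorylation genes 0.05 and the cytosolic ribosomal protein genes -0.37.

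Many members share a start region with a gene on the opposite strand. A protein-coding gene began within 1000 bases in the other direction for 18 of the 78 (23.1%), against 9.82% of 13499 tested protein-coding genes. Among the 15 that fell there were 4 such pairs, and no neighbour of the 4 passed. Mrps27 begins 81 bases from Ptcd2, which encodes a pentatricopeptide repeat protein of mitochondrial RNA processing and had a log2 fold change of -0.10 (SE 0.09, adjusted p = 0.456). Klc4, the neighbour of Mrpl2 at 207 bases, had a log2 fold change of 0.30 (SE 0.11, adjusted p = 0.0580). Zfp189, at 83 bases from Mrpl50, and Lrrc46, at 153 bases from Mrpl10, had -0.07 and -0.10. Of all 18 neighbours 4 passed, each beside a member that did not, where 30.0% of all genes tested passed. Fau (of Mrpl49), Hira (of Mrpl40) and Ska3 (of Mrpl57) fell, and Pnpla7 (of Mrpl41) rose, all named after their values were seen. Whether paired genes move together was not tested.

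Levels per gene length, as the authors' deposited FPKM, spanned 21.1-fold within the family around a median of 25.6 FPKM. Mrpl52, a mitochondria-specific large-subunit protein, was at 128, 111, 128 and 148 FPKM in shNT and at 142, 141, 138 and 109.6 FPKM in shXBP1. Mrpl33, the counterpart of a small bacterial protein, was at 139, 119.9, 121 and 122 FPKM in shNT and at 129, 155, 147 and 109.9 FPKM in shXBP1. Those 2 had the highest means over the 8 tumors, 130.7 and 130.3 FPKM, and did not differ from each other beyond their spread. At the other end Mrps35 was at 7.24, 6.63, 6.88 and 6.61 FPKM in shNT and at 5.35, 5.52, 5.14 and 6.28 FPKM in shXBP1. Mrpl19 was at 7.65, 7.86, 6.96 and 7.42 FPKM in shNT and at 6.52, 5.95, 6.66 and 5.68 FPKM in shXBP1. Means of these 2 genes over the 8 tumors were 6.21 and 6.84 FPKM, and these 2 means were again close beside the spread across tumors. Within each of the 2 genes every shXBP1 tumor lay below every shNT tumor in FPKM. This did not hold for every called member. In FPKM the groups overlapped for Mrpl3 (16.6 in shNT tumor 4, 16.9 in shXBP1 tumor 4) and for Mrpl10 (29.0 in shNT tumor 3, 29.5 in shXBP1 tumor 4). The order of levels between genes depends on the gene model, since the length implied by counts and FPKM differed over 1.5-fold from the exon length in GENCODE for 33 members. In CPM, Mrpl52 was at 61.8, 50.3, 61.6 and 72.6 CPM in shNT and at 69.2, 69.8, 66.7 and 49.0 CPM in shXBP1, with shXBP1 tumor 4 far below the other 3 (log2 fold change 0.05, SE 0.13, adjusted p = 0.814). Mrpl33 was at 79.1, 64.1, 68.2 and 68.5 CPM in shNT and at 73.1, 88.3, 82.0 and 57.8 CPM in shXBP1 (log2 fold change 0.11, SE 0.12, adjusted p = 0.549).

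The authors' deposited table gives a fold change for all 78 members, of the same sign as the edgeR value in 76. At its adjusted p below 0.01, the authors' deposited table has 8 members lower and 1 higher, and at 0.05 it has 17 lower and 2 higher. With a 2-fold limit added, the authors' deposited table has 0 members changed at 0.01.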

How the data were processed

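Members and gene lists were chosen with earlier results of these data known. The raw counts per gene, whole numbers, were deposited without normalization, per the file headers. The deposited FPKM are the authors' values, named so in the column headers, and served to compare levels between genes. How they were computed is not stated. They were not in fixed proportion to CPM across tumors. Mrpl48 had 8.07 FPKM at 36.7 CPM in shXBP1 tumor 1 and 14.3 FPKM at 43.4 CPM in shXBP1 tumor 2. The log2 fold changes and adjusted p-values in the authors' deposited table come from their DESeq2 comparison, per the file headers. Per the submitters' processing notes the genome was GRCm38. Aligner, counter, strand setting and annotation: not given in the sources used here.

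Counts were filtered with filterByExpr, scaled by TMM (factors 0.980 to 1.04) and tested with the quasi-likelihood test of edgeR (4.0.16, R 4.3.3; robust, no covariate), two-sided, shXBP1 against shNT, 4 tumors each, with Benjamini-Hochberg adjustment over 14907 genes. CPM use TMM-scaled totals. Alternatives were DESeq2 (1.42.0), limma voom (3.58.1), RLE or upper quartile factors, other filters, non-robust dispersions, a block for tumor number, Ptprc as a covariate, a threshold of 0.01 and each tumor left out. Counts of any pair of tumors in a group differed by a chi-square of at least 16.2 per degree of freedom.

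Genes were named by rule: in each direction the 6 called members of each subunit with the smallest p, where Mrps18a and Mrps30 count as large; the 2 highest and 2 lowest in FPKM; Mrpl10, Mrpl11, Mrpl12, Mrpl45, Mrpl58, Mrps12, Mrpl41, Mrps18a, Mrps18b, Mrps18c, Mrps30, Mrpl37 and Mrps36; the 2 with a log2 fold change nearest 0; members with a tumor far from its group by Dixon's ratio (0.829 for 4 tumors); up to 3 genes of each other pathway list; Xbp1 and Ptprc; and the 5 genes most alike. Ict1, an older name of Mrpl58, was left out of the list of proteins with other names. The procedure was tested on simulated counts of 14705 genes for this comparison. Among genes given a 1.5-fold change 43.2% of 74 were called, at 2-fold it was 80.0% of 65 and at 4-fold 89.1% of 55. Of all calls 6.34% were false. The changed genes were few, unlike in the data, and were drawn from all levels.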

Additional observations from a re-analysis of the deposited data

Results flagged for a closer look

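In 9 of 156 combinations of a member and a group, 1 tumor lay far from the other 3 by Dixon's ratio, or 5.77%, where chance gives about 1 in 20. In shXBP1 tumor 4, the lowest of its group for most of the family, Mrps21 was at 36.7 CPM, against 48.3 to 49.7 CPM in the other 3, Mrpl36 at 22.9 CPM, against 29.3 to 29.9 CPM in the other 3, and Mrpl52 at 49.0 CPM, against 66.7 to 69.8 CPM in the other 3. In shXBP1 tumor 2 Mrpl2 was at 36.0 CPM, against 45.1 to 46.9 CPM in the other 3, and Mrps33 was high, at 38.3 CPM, against 28.7 to 29.8 CPM in the other 3. Mrpl43 was low in shXBP1 tumor 3, at 36.9 CPM, against 41.4 to 42.2 CPM in the other 3. Among shNT tumors, Mrpl2 was low in tumor 4, at 51.9 CPM, against 57.2 to 58.3 CPM in the other 3, Mrpl14 was low in tumor 2, at 34.3 CPM, against 37.9 to 38.3 CPM in the other 3, and Mrpl48 was high in tumor 1, at 47.1 CPM, against 39.8 to 40.5 CPM in the other 3.

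Of these genes only Mrpl2 passed the test with all 8 tumors. Mrps21 was at 40.6, 32.8, 37.2 and 45.0 CPM in shNT and at 48.3, 49.7, 49.5 and 36.7 CPM in shXBP1 (log2 fold change 0.24, SE 0.12, adjusted p = 0.148). Without shXBP1 tumor 4, its low tumor, Mrps21 rose (log2 fold change 0.34, adjusted p = 0.0210). Mrpl36 was at 32.3, 30.7, 25.9 and 26.0 CPM in shNT and at 29.5, 29.3, 29.9 and 22.9 CPM in shXBP1 (log2 fold change -0.04, SE 0.11, adjusted p = 0.817). Mrps33 was at 36.1, 25.3, 33.5 and 30.8 CPM in shNT and at 29.8, 38.3, 29.6 and 28.7 CPM in shXBP1 (log2 fold change 0.01, SE 0.13, adjusted p = 0.972). In each of these 3 the stray tumor belongs to the shXBP1 group, and the groups overlap. Mrpl43 was at 38.5, 37.5, 35.2 and 39.9 CPM in shNT and at 41.4, 41.6, 36.9 and 42.2 CPM in shXBP1 (log2 fold change 0.10, SE 0.08, adjusted p = 0.380). On the opposite strand Twnk covers 33.4% of its exon bases. Mrpl14 was at 38.2, 34.3, 37.9 and 38.3 CPM in shNT and at 40.9, 43.8, 38.9 and 37.8 CPM in shXBP1 (log2 fold change 0.12, SE 0.08, adjusted p = 0.305). Mrpl48 was at 47.1, 39.8, 40.5 and 40.5 CPM in shNT and at 36.7, 43.4, 42.6 and 36.4 CPM in shXBP1 (log2 fold change -0.08, SE 0.09, adjusted p = 0.561).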

How the results depend on the processing

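The members that fell numbered 17 with DESeq2, 15 with limma voom, with RLE factors and without robust estimation, and 10 with upper quartile factors, without a filter and with a filter of 10 CPM in 4 libraries. At a threshold of 0.01 they were 4, and without 1 tumor 6 to 14. Those that rose were 2 with DESeq2, with upper quartile factors and with the filter of 10 CPM, 0 with Ptprc as a covariate and 1 to 5 without 1 tumor. Of all genes, 1644 rose and 879 fell at a threshold of 0.01, and 134 rose and 106 fell with Ptprc as a covariate, where 2 members fell and the family median was -0.31. Without 1 tumor 1303 to 2401 of all genes fell and 2058 to 2904 rose. Counts over all genes are not given here for DESeq2, limma voom, RLE or upper quartile factors, the non-robust fit or the other filters. The member counts of those fits are thus not set against a share of all genes. Mrpl11 was called in all 17 alternative fits. Mrps27, Mrps9, Mrpl3, Mrpl2 and Mrpl45, with Mrpl38, lost their call with the Ptprc covariate and in none of the other 16 fits. At a threshold of 0.01 in place of 0.05, Mrpl2 and Mrpl45 were not called.

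Whether equal tumor numbers pair the samples is not stated in the labels. Deviations of same-numbered tumors from their group means correlated at -0.074, -0.14, -0.025 and -0.060 over 14907 genes. Such correlations cannot show that the design held no pairing. No tumor correlated best with its own number. With the tumor number as a replicate block 6 members fell and 1 rose, and 2040 of all genes rose and 1304 fell.

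Sign changes occurred in 14 of the 34 named members, none of them called. With Ptprc as a covariate the sign changed for Mrpl33 (-0.62), Mrpl52 (-0.70), Mrpl41 (-0.62), Mrps18c (-0.84), Mrpl37 (0.37), Mrps36 (0.0327), Mrps21 (-0.39), Mrpl14 (-0.15) and Mrps33 (-0.56). It changed with a filter of at least 10 CPM in 4 libraries for Mrps18a (0.0212), Mrps36 (0.0134), Mrpl18 (0.0418), Mrpl39 (0.0371) and Mrpl36 (0.00258); with no low count filter for Mrpl18 (0.00319); with upper quartile factors for Mrpl18 (0.0164) and Mrpl39 (0.0119). With 1 tumor left out the log2 fold change ranged over -0.0401 to 0.16 for Mrpl52, -0.0296 to 0.0606 for Mrps12, -0.0612 to 0.00634 for Mrps18a, -0.0798 to 0.0309 for Mrps36, -0.0392 to 0.0542 for Mrpl18, -0.0471 to 0.0411 for Mrpl39, -0.0873 to 0.0494 for Mrpl36 and -0.0958 to 0.0859 for Mrps33.

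A median SE of 0.098 limits what these data resolve to shifts of about the size called here. In simulated counts, 43.2% of 74 genes changed 1.5-fold were recovered. Few genes were changed in that simulation, and they were drawn from all levels. In the data 4475 of 14907 genes were called, so the share recovered does not carry over to the members. A miss does not show that a member was level.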

Other observations

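The genes outside the family whose level over the 8 tumors was most like the mean standardized level of the members were Fnta, Ola1, Gmfb, Ssu72 and Hint1, with Pearson's r of 0.979 to 0.985 over 8 tumors. The points share their libraries, and the likeness is a description. Fnta, a farnesyltransferase subunit, was at 95.1, 80.5, 86.3 and 87.8 CPM in shNT and at 81.2, 87.2, 85.7 and 69.4 CPM in shXBP1, highest in shNT tumor 1 and lowest in shXBP1 tumor 4, and none of the 5 passed the test (adjusted p from 0.0847 to 0.376).

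The 39 members with the shorter exon length had a median log2 fold change of -0.041, with 6 lower and 0 higher, and the 39 longer ones had -0.11, with 9 lower and 1 higher. Among all genes tested, 9.71% were lower and 20.6% higher in the length range of the shorter members, and 14.4% and 17.2% in that of the longer ones. Spearman's rho of log2 fold change with exon length was -0.21 over 78 members, which share the 8 libraries, and -0.080 over 13525 tested genes found in GENCODE.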
